A study of Mus musculus with 6 samples.

Results

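The genes described here are 50 that act in the G2 phase and in mitosis: cyclins and Cdk1, mitotic kinases, the spindle checkpoint, the kinetochore, kinesins, cytokinesis factors and the transcription factors that switch them on. They were chosen by name, and each was read from the transcript cluster (the set of probes for 1 gene on the array) whose annotation gives that symbol alone. Of the 50 members, 48 were measured, among 22180 genes with a value. The cyclin B1 gene Ccnb1 had no such transcript cluster, and the cyclin F gene Ccnf shared its only one with a microRNA gene, so both are named without values.

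RNA came from myeloid cells of mouse fetal liver grown with GM-CSF (1 ng/ml), the cytokine that drives granulocyte and macrophage growth. The study had 3 uninduced samples and 3 induced samples, which received 1000 ng/ml doxycycline for 72 hours, and each was read on 1 Affymetrix Mouse Gene 2.0 ST array. The labels describe the induced state as expression of PU.1, the transcription factor encoded by Spi1, and the series title asks about exit from the cell cycle and E2F1. They give no strain, embryonic age, construct or clone, and no group received doxycycline without PU.1, so the drug and PU.1 cannot be told apart. Nothing in the labels states whether the samples of a group came from separate cultures; p-values here describe only the variation among these 6 samples, part of which may be technical. In a mixed population, fewer dividing cells and less RNA per dividing cell cannot be told apart.

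A cell enters mitosis when Cdk1, bound to a B-type cyclin, is freed of inhibitory phosphate by Cdc25 phosphatases. Kinetochores then attach chromosomes to spindle microtubules, the checkpoint holds the cell until every chromosome is attached, and the anaphase promoting complex (APC/C) with Cdc20 marks cyclin B and securin for destruction. Most of these genes are transcribed late in the cycle through 2 promoter elements: the CCAAT box, bound by NF-Y, and the cell cycle genes homology region (CHR), bound by the MuvB complex, which represses with pocket proteins in resting cells and activates with B-Myb and FOXM1 in dividing ones. Myeloid progenitors divide rapidly and leave the cycle as they mature, so levels of these transcripts are commonly read as a measure of how many cells divide.

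The promoters are shown because matches to these elements were more frequent among member promoters than among all promoters. Most member promoters had no CHR match in the stretch searched, and the selection by name did not use the elements. RefSeq start sites on GRCm38.p6, the assembly also called mm10, were found for 42 of the 48 measured members, 44 start sites in all. Searched on both strands in the 250 bases before the start, the letters CCAAT, which read ATTGG when the box lies on the other strand, occurred in 31 of 44 member promoters, or 70.5%, against 33.8% of 32851 promoters of all genes. The CHR was searched as TTTGAA, which reads TTCAAA when it lies on the other strand, and as its variant with a CG pair in the middle, TTCGAA; it occurred in 16, or 36.4%, against 17.1%. Both elements were present in 14 of 44 (31.8%), against 6.02% of all promoters. A match describes letters, not a bound site. Absence of a match, here and below, covers only these letters and these 250 bases, as nothing past the start site was searched. The 120 bases before the start site are printed with CCAAT and CHR matches in capitals, first for 5 members that hold both, then for Bub1, which holds only CCAAT boxes and was added after its values were seen, and for the kinetochore partners Ndc80 and Nuf2, which hold neither. In Top2a the last 10 bases lie within the annotated gene.
Cdk1 (chr10:69352913-69353032, minus strand): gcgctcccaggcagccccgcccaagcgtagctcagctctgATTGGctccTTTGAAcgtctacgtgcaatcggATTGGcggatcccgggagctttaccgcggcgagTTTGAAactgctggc
Cdc20 (chr4:118437344-118437463, minus strand): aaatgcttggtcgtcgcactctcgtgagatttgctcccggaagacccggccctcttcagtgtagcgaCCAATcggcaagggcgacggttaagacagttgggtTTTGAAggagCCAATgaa
Kif11 (chr19:37376262-37376381, plus strand): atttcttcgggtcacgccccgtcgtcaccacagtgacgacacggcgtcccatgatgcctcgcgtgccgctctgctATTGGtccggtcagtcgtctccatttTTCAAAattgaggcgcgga
Ckap2 (chr8:22185820-22185939, minus strand): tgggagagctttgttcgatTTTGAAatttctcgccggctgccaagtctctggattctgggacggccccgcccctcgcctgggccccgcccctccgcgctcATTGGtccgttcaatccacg
Top2a (chr11:99024190-99024309, minus strand): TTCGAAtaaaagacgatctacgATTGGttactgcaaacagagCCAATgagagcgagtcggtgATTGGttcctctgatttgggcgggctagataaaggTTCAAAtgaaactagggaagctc
Bub1 (chr2:127831860-127831979, minus strand): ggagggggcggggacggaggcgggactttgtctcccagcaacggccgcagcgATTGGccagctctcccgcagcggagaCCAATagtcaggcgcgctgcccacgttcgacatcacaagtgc
Ndc80 (chr17:71526858-71526977, minus strand): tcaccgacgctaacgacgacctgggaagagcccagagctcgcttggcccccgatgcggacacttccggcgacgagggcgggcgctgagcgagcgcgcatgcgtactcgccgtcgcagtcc
Nuf2 (chr1:169531465-169531584, minus strand): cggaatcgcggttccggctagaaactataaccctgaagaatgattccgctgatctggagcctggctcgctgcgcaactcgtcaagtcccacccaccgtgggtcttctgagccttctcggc
These windows were chosen by the elements they hold, so they cannot show how the elements are spread over the list. Among them Cdk1 shows 2 of each, Top2a shows 3 CCAAT boxes and 2 CHR matches, and Ndc80 and Nuf2 have 0. Members with both elements had a median log2 difference, induced minus uninduced, of -0.30 (13 members), those with a CCAAT box only -0.40 (16 members) and those with neither -0.30 (11 members). The 2 members with CHR letters only, the kinesin genes Kif15 and Kif2c, were at -0.30 and -0.47.

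Every measured member had a lower mean in induced than in uninduced cells, and no single member passed the test. Differences of the 48 members ran from -0.72 for the checkpoint kinase gene Bub1 to -0.03 for the securin gene Pttg1, with a median of -0.33 on the log2 scale, beside a median of 0.06 over all 22180 genes. By limma with Benjamini-Hochberg adjustment over all genes, 0 of 48 members were lower and 0 higher at an adjusted p under 0.05, beside 1.05% of all genes called lower and 0.374% called higher. At an unadjusted p under 0.05, 22 of 48 (45.8%) were lower and 0 higher, beside 16.9% and 11.4% of all genes. All 3 induced values lay below all 3 uninduced values for 13 members (27.1%), beside 15.4% of all genes. The reverse held for 0 members, beside 16% of all genes. For these non-overlap counts, the share among genes of the members' expression level was not computed.

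Genes of like expression level were mostly below 0 too, so the common direction was not particular to the mitotic genes. Member levels averaged over the 6 arrays lay between 7.62 and 11.46, and all 7556 genes in that range had a median difference of -0.33, with 86.8% below 0 and 41.2% lower at an unadjusted p under 0.05. Of the 48 members, 24 lay below that median. Between levels of 8 and 9 the median difference was -0.34 over 3287 genes and -0.31 over 15 members, between 9 and 10 it was -0.37 over 1871 genes and -0.38 over 18 members, and between 10 and 11 it was -0.32 over 791 genes and -0.35 over 8 members. At the ends of the range the medians were further apart: between 7 and 8 it was -0.04 over 4345 genes and -0.57 over 4 members, and between 11 and 12 it was -0.21 over 261 genes and -0.10 over 3 members. Whether members differ from genes of their level was not tested. Dim genes went the other way, with a median difference of 0.19 over 5861 genes at levels between 6 and 7. In the plot of difference by expression level, Bub1, Birc5 and Cdc25c are among the members below the middle 50% of genes of their level, and Pttg1 and Ube2c among those above it.

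**Figure D1:**
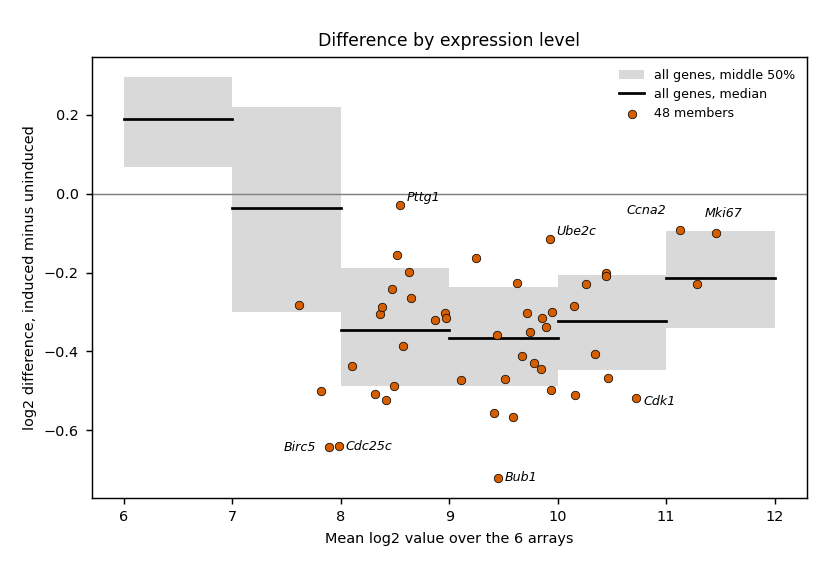
Log2 difference, induced minus uninduced, against the mean log2 value over the 6 arrays. Points are the 48 members, black lines the median and grey boxes the middle 50% of all genes in each unit of level; between levels of 8 and 11 the lines sit between -0.37 and -0.32, and the members scatter around them.

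The members' difference came from induced B and induced C, while induced A stayed near their uninduced level. Spi1 itself was at 8.80, 8.65 and 8.84 in uninduced A, B and C. It was at 9.13, 9.04 and 9.05 in induced A, B and C, a difference of 0.31 (limma adjusted p = 0.152). The median over members of the log2 value minus the uninduced mean was -0.53 for induced B, -0.47 for induced C and only -0.04 for induced A. Among uninduced samples it was 0.17 for B, -0.06 for A and -0.13 for C. Induced A was the highest induced sample for 48 of 48 members, beside 8154 of all 22180 genes. Uninduced B was the highest uninduced sample for 42 members, beside 9114 of all genes. Induced B lay below the lowest uninduced value for 46 members and induced C for 47, beside 8010 and 7893 of all genes. Induced A did so for 13 members, beside 5414 of all genes. For these counts by array, the share among genes of the members' level was not computed. Without induced A, 26 of 48 members (54.2%) fell at an adjusted p under 0.05 by limma, beside 15.9% of all genes (9.01% rose). The share among genes of the members' level was not computed for this setting. The members' median difference was then -0.49. Without any other single array 0 members passed. The width of the arrays' distributions moved in parallel: the interquartile range over all transcript clusters was 2.17 in induced B and 2.21 in induced C and between 2.37 and 2.62 on the other arrays. Its part in the result was not tested. Cyclic loess brings the arrays to a common scale at each level, and so takes out a shift that genes of a level share, whatever its source. It left the members' median at -0.06, beside -0.08 over all genes in the members' level range. After it 33 of 48 members were below 0 (51.6% of all genes were) and 0 passed the threshold (0.64% of all genes were lower and 0.352% higher). At an unadjusted p under 0.05, 7 members were lower after cyclic loess, beside 10.5% of all genes lower and 7.68% higher. Cyclic loess with induced A left out, an alternative chosen after seeing the data, called 2 members lower, Cdc25c and Hmmr (4.17%, beside 4.01% of all genes called lower and 2.37% higher). Quantile normalization called 0 members, beside 0.712% of all genes lower and 0.334% higher. A threshold of 0.10 on the deposited values called Bub1 alone, beside 3.07% of all genes lower and 1.1% higher. Array weights, which let limma give each array its own weight, called 32 members lower (66.7%), beside 25.6% of all genes lower and 26.3% higher. Here too the share among genes of the members' level was not computed.

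**Figure D2:**
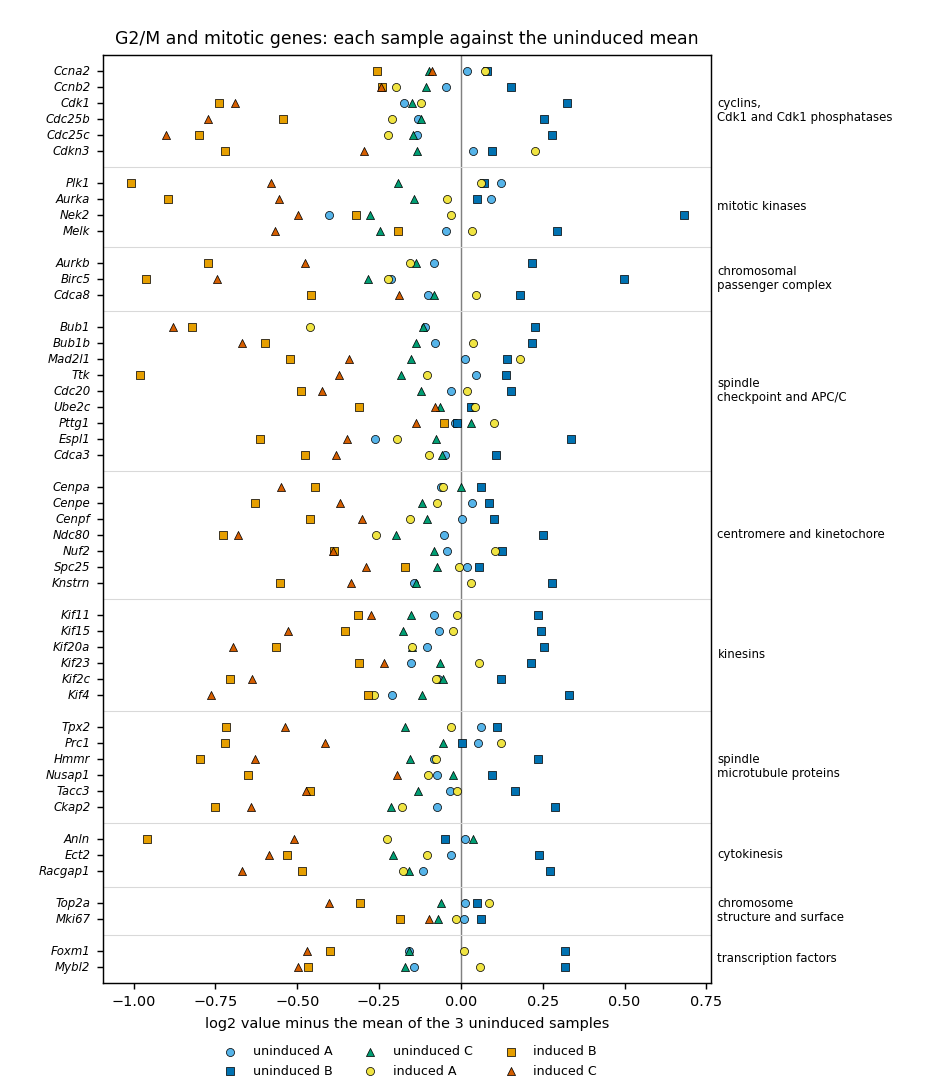
Log2 value of each of the 48 members in each sample minus that gene's mean over the 3 uninduced samples, ordered by function. Induced B and induced C lie left of 0 for all 48 members, induced A (yellow circles) lies below all 3 uninduced samples for 13, and uninduced B (dark blue squares) is the rightmost uninduced sample for 42. Of all 22180 genes, not drawn, 9869 were below the uninduced mean in induced B and 9844 in induced C. Induced A was below all 3 uninduced samples for 5414 genes, and uninduced B was the highest of them for 9114. The same counts among genes of the members' level were not computed.

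Cyclins, Cdk1 and the phosphatases that act on it had 6 measured members, all below 0 as deposited and 4 after cyclic loess. Cdk1 (chromosome 10, 69335146 to 69352912), the kinase that drives mitotic entry and whose promoter with 2 CHR matches is printed above, had log2 values of 10.80, 11.30 and 10.83 in the uninduced samples and of 10.86, 10.24 and 10.29 in the induced ones; values are given in the order A, B, C here and for every gene that follows. Induced A lay among the uninduced values and the other induced samples below them, so the groups overlapped. Induced samples were 1.43-fold lower on average, at -0.52 (SE 0.20, limma adjusted p = 0.142). The unadjusted 95% interval was -0.96 to -0.08; intervals given for other genes are unadjusted too.

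Its cyclin partners differed less. Ccna2, which encodes cyclin A2 of S phase and G2, was at 11.20, 11.26 and 11.08 in uninduced and 11.25, 10.92 and 11.09 in induced samples, overlapping groups with a difference of -0.09 (SE 0.14) that became 0.18 after cyclic loess. Ccnb2, which encodes cyclin B2, was at 11.35, 11.55 and 11.29 and at 11.20, 11.16 and 11.16. Here the groups did not overlap, but the difference was only -0.23 (SE 0.13, limma adjusted p = 0.24), and 0.04 after cyclic loess.

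The Cdc25 phosphatases, which activate Cdk1, had differences further below 0. Cdc25c had values of 8.17, 8.58 and 8.16 in uninduced and of 8.08, 7.51 and 7.41 in induced samples, without overlap and with a difference of -0.64 (SE 0.20, limma adjusted p = 0.113). Only 1 of its 3 induced values exceeded the 95th percentile of 1394 olfactory and vomeronasal receptor genes on the same array, the level used here as the upper range of background. That percentile was itself higher on induced B (7.99) and induced C (7.85) than on the other arrays (7.05 to 7.39). Counts of induced values above the range, here and for other genes, therefore depend on that rise as well as on the gene. Cdc25b went from 8.44, 8.82 and 8.44 to 8.36, 8.02 and 7.80, also without overlap, at -0.51 (SE 0.17), with 2 of 3 induced values above the range of background. Cdkn3, a phosphatase that removes the activating phosphate of Cdk1, was at -0.26 (SE 0.21), with induced A, at 9.01, the highest of the 6 samples. After cyclic loess Cdc25c was at -0.50 and Cdc25b at -0.30.

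The mitotic kinases Plk1, Aurka, Nek2 and Melk had differences between -0.51 and -0.24, all 4 below 0 after cyclic loess too. Plk1, the polo-like kinase of centrosome maturation and mitotic entry, was at 10.54, 10.49 and 10.22 in uninduced samples and at 10.48, 9.41 and 9.84 in induced ones. Induced A reached the uninduced level and induced B was the lowest, which gave -0.51 (SE 0.23, limma adjusted p = 0.18) and an interval from -1.03 to 0.01. Aurka, which encodes the centrosomal kinase Aurora A, had the same order, with 10.28, 10.23 and 10.04 in uninduced and 10.14, 9.29 and 9.63 in induced samples and a difference of -0.50 (SE 0.20). Nek2, a centrosome-separation kinase, rested on 1 sample: it was at 7.35, 8.44 and 7.48 in uninduced samples and at 7.73, 7.44 and 7.26 in induced ones. Its difference of -0.28 (SE 0.26) was 0.06 without uninduced B, and 3 of its 6 values lay in the range of background. Melk was at -0.24 (SE 0.19), and at -0.01 after cyclic loess.

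The chromosomal passenger complex places the kinase Aurora B at centromeres and later at the midzone, and its 3 members here did not differ alike. Aurkb, the kinase, was at 10.61, 10.91 and 10.56 in uninduced and at 10.54, 9.92 and 10.22 in induced samples, without overlap, at -0.47 (SE 0.18, limma adjusted p = 0.14). Birc5, which encodes survivin, was at 8.003, 8.71 and 7.93 and at 7.99, 7.25 and 7.47. Its difference of -0.64 (SE 0.24) had induced A level with the uninduced samples, and 1 of 3 induced values was above the range of background. Cdca8, which encodes borealin, was at -0.20 (SE 0.16), and at 0.06 after cyclic loess, against -0.53 for Birc5 and -0.17 for Aurkb.

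The spindle checkpoint and APC/C group had 9 members with a median difference of -0.32, 9 below 0 as deposited and 5 after cyclic loess. Bub1 (chromosome 2, 127800197 to 127831859), a kinase that recruits checkpoint proteins to kinetochores, had log2 values of 9.70, 10.04 and 9.70 in uninduced and of 9.35, 8.99 and 8.93 in induced samples. All 3 induced samples, induced A included, lay below all uninduced ones. It was 1.65-fold lower, a difference of -0.72 (SE 0.16) with an interval from -1.07 to -0.37, and had the lowest adjusted p of the members (limma adjusted p = 0.0573). The call turned on small choices: the adjusted p was 0.0411 with the letter as a replicate block (1 of 48 members, 2.08%, beside 1.92% of all genes called lower and 0.784% higher) and 0.0453 when only genes above the 25th percentile of level were tested (beside 2% of those genes called lower and 0.583% higher), and 0.101 after cyclic loess, at -0.41. Over all alternatives it ran from 0.00032 (array weights) to 0.262 (without induced C), and it was 0.00873 without induced A and 0.211 without uninduced B.

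The checkpoint partners of Bub1 were closer to 0. Bub1b, which encodes BubR1, was at 9.80, 10.10 and 9.74 in uninduced and at 9.91, 9.28 and 9.21 in induced samples, with induced A among the uninduced values and a difference of -0.41 (SE 0.19). Ttk, the MPS1 kinase at the head of the checkpoint, was at -0.49 (SE 0.21), with a low of 7.75 in induced B that lay in the range of background, and Mad2l1, which encodes the Cdc20 inhibitor MAD2, was at -0.23 (SE 0.18). After cyclic loess these were -0.10, -0.25 and 0.07.

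The APC/C side of the group included the member nearest to 0, Pttg1. Cdc20, the APC/C activator whose promoter is printed above, was at 10.07, 10.25 and 9.98 and at 10.12, 9.61 and 9.68, a difference of -0.30 (SE 0.16) and 0.01 after cyclic loess. Ube2c, the ubiquitin-conjugating enzyme of the APC/C, was at 10.02, 10.02 and 9.92 in uninduced and at 10.03, 9.68 and 9.91 in induced samples, or -0.12 (SE 0.14). Pttg1, securin, was at 8.54, 8.55 and 8.59 and at 8.66, 8.51 and 8.42, or -0.03 (SE 0.13), with an interval from -0.31 to 0.25. The groups overlapped for all 3 of these genes, and Ube2c and Pttg1 were above 0 after cyclic loess, at 0.20 and 0.22. Espl1, the protease separase that securin holds in check, was at -0.39 (SE 0.18), and Cdca3, a mitotic entry factor and APC/C substrate, at -0.32 (SE 0.14), without overlap.

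The 7 centromere and kinetochore genes had a median difference of -0.31, all below 0 as deposited and 4 after cyclic loess. Ndc80, the microtubule-binding subunit of the NDC80 complex, was at 9.64, 9.94 and 9.49 in uninduced and at 9.43, 8.96 and 9.01 in induced samples, without overlap, at -0.56 (SE 0.17, limma adjusted p = 0.114). Of the other subunits of that complex, Nuf2 was at -0.23 (SE 0.16) and Spc25 at -0.15 (SE 0.13). Spc24, the remaining subunit and not a member, was at -0.42 (SE 0.22), with 1 of 3 induced values above the range of background; it was named after its values were seen. The groups overlapped for all 3. Cenpa, the centromeric histone, was at 9.86, 9.98 and 9.92 and at 9.86, 9.47 and 9.37, or -0.35 (SE 0.15). Cenpe, a kinetochore motor, was at -0.36 (SE 0.16), and Cenpf, a large kinetochore protein of G2 and mitosis, at -0.31 (SE 0.14) without overlap. Knstrn, a spindle and kinetochore adaptor, was at -0.29 (SE 0.18), and a second, dimmer transcript cluster of it was at 0.05. After cyclic loess Ndc80 was at -0.24 and Spc24 at -0.37, and Nuf2, Spc25 and Knstrn were at 0.09, 0.09 and 0.02.

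The 6 kinesins ran from -0.47 to -0.16 with a median of -0.37, all below 0 as deposited and 4 after cyclic loess. Kif2c, the microtubule depolymerase MCAK, was at 9.28, 9.47 and 9.29 in uninduced and at 9.27, 8.64 and 8.71 in induced samples. The groups did not overlap, though induced A lay just under the lowest uninduced value, and the difference was -0.47 (SE 0.17, limma adjusted p = 0.139). Kif20a, the cytokinesis kinesin MKLP2, was also at -0.47 (SE 0.17), and the chromokinesin gene Kif4 at -0.44 (SE 0.19), without overlap and with 2 of 3 induced values above the range of background. Kif11, the Eg5 motor that pushes spindle poles apart, was at 10.46, 10.78 and 10.39 and at 10.53, 10.23 and 10.27, or -0.20 (SE 0.15). Kif15, which supports the bipolar spindle beside Eg5, was at -0.30 (SE 0.17), and Kif23, the MKLP1 subunit of centralspindlin, at -0.16 (SE 0.15). Kif11 and Kif23 were above 0 after cyclic loess, at 0.10 and 0.14.

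Spindle microtubule proteins differed between -0.52 and -0.32, all 6 below 0 under both scalings, though Nusap1 was at 0.00 to 2 decimals after cyclic loess. Ckap2, a spindle-associated protein with 1 CHR and 1 CCAAT match in the printed window, was at 8.60, 8.96 and 8.46 in uninduced and at 8.50, 7.92 and 8.04 in induced samples, or -0.52 (SE 0.18). Hmmr, a spindle assembly factor also known as the hyaluronan receptor RHAMM, was at 7.99, 8.30 and 7.91 and at 7.99, 7.27 and 7.44, or -0.50 (SE 0.19). Induced A overlapped the uninduced samples in both, and Hmmr exceeded the range of background in 1 of 3 induced samples and Ckap2 in 2 of 3. Tpx2, the activator of Aurora A at the spindle, was at -0.43 (SE 0.18), Prc1, the bundler of midzone microtubules, at -0.34 (SE 0.19), and the microtubule binder Nusap1 and the Aurora A partner Tacc3 both at -0.32 (SE 0.16). After cyclic loess Hmmr was at -0.40, Ckap2 at -0.30 and Tpx2 at -0.11.

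Cytokinesis genes had 3 members, each lower at an unadjusted p under 0.05, as were 16.9% of all genes and 41.2% of those in the members' level range, and each below 0 after cyclic loess, as were 51.6% of all genes. Anln, which encodes the contractile ring scaffold anillin, was the tightest of them in uninduced samples at 9.88, 9.82 and 9.91, and was at 9.64, 8.91 and 9.36 in induced ones. All induced values lay below the uninduced ones, and the difference was -0.57 (SE 0.18, limma adjusted p = 0.117). Racgap1, the GTPase-activating subunit of centralspindlin, was at -0.44 (SE 0.17) without overlap, and Ect2, the RhoA exchange factor it recruits, at -0.41 (SE 0.17) with induced A among the uninduced values. After cyclic loess the 3 genes were at -0.25, -0.13 and -0.11.

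The chromosome genes used as proliferation markers were among the members nearest to 0. Mki67, the Ki-67 protein that coats mitotic chromosomes, was at 11.52, 11.57 and 11.44 in uninduced and at 11.49, 11.32 and 11.41 in induced samples, or -0.10 (SE 0.12), with an interval from -0.38 to 0.17. Top2a, topoisomerase II alpha, was at 10.57, 10.60 and 10.49 and at 10.64, 10.25 and 10.15, or -0.21 (SE 0.15). For both genes the groups overlapped, and after cyclic loess they were above 0, at 0.16 and 0.09. The activators of the late cell cycle programme lay near the median of the list: Foxm1 was at -0.29 (SE 0.18), and Mybl2, which encodes B-Myb, at -0.30 (SE 0.19), with a second, dimmer transcript cluster at -0.02. In induced A both were at or above their uninduced means, by 0.01 for Foxm1 and 0.06 for Mybl2.

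**Figure D3:**
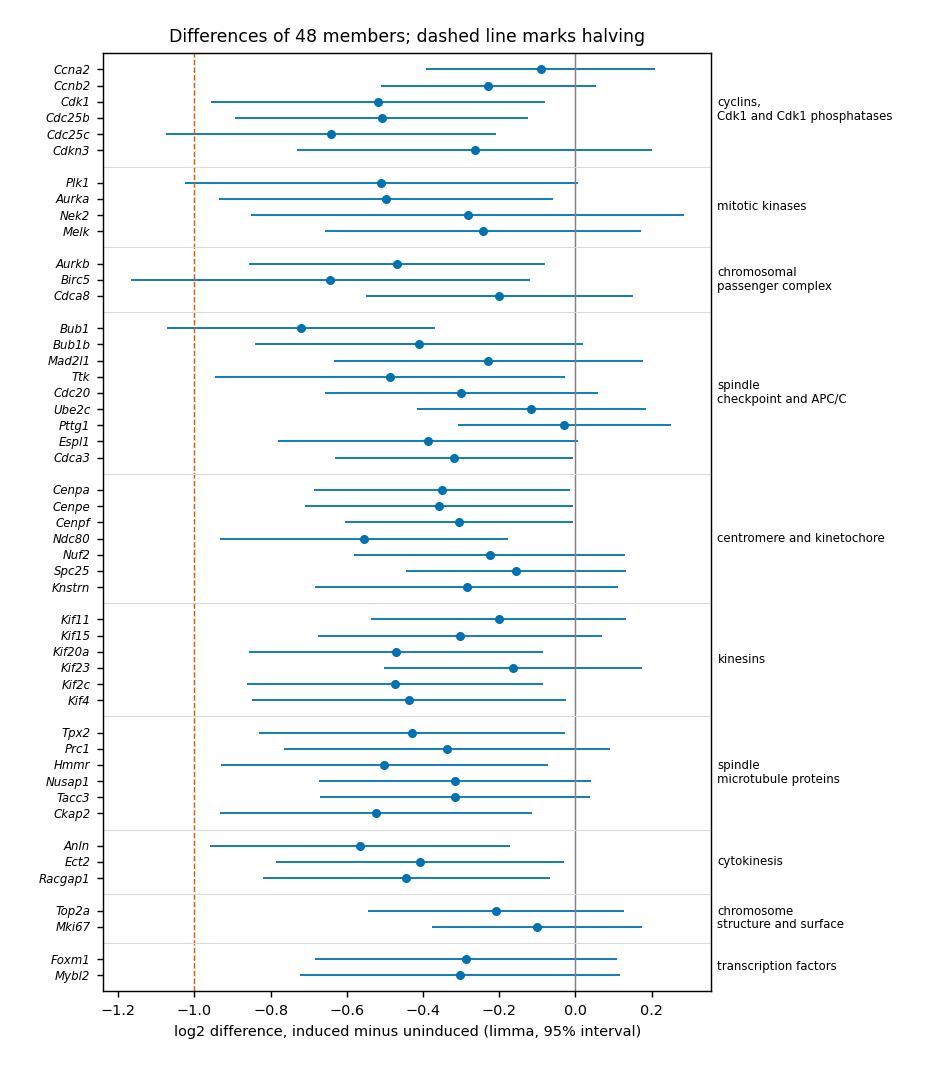
Log2 difference of each member, induced minus uninduced, with its limma 95% interval, ordered by function; the solid line marks no difference and the dashed line a halving. All 48 points lie left of 0, and the intervals of 22 members exclude 0 before adjustment. Of all 22180 genes, not drawn, 6281 had an interval that excluded 0 in either direction. Among genes in the members' level range, 86.8% were below 0 and 41.2% were lower at an unadjusted p under 0.05 by limma.

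The 95% interval stayed above -1, a halving, for 44 of 48 members, beside an interval that excluded a halving for 21007 of 22180 genes, and it reached below it for Bub1, Birc5, Cdc25c and Plk1. Standard errors had a median of 0.17, and the median SD between samples was 0.17 in the uninduced and 0.28 in the induced group. Across functions the medians lay between -0.47 for the chromosomal passenger complex and -0.15 for the pair Top2a and Mki67. In induced A the lowest median of a functional group was -0.18, for cytokinesis, whereas in induced B these medians ran from -0.77 to -0.25 and in induced C from -0.59 to -0.25.

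**Figure D4:**
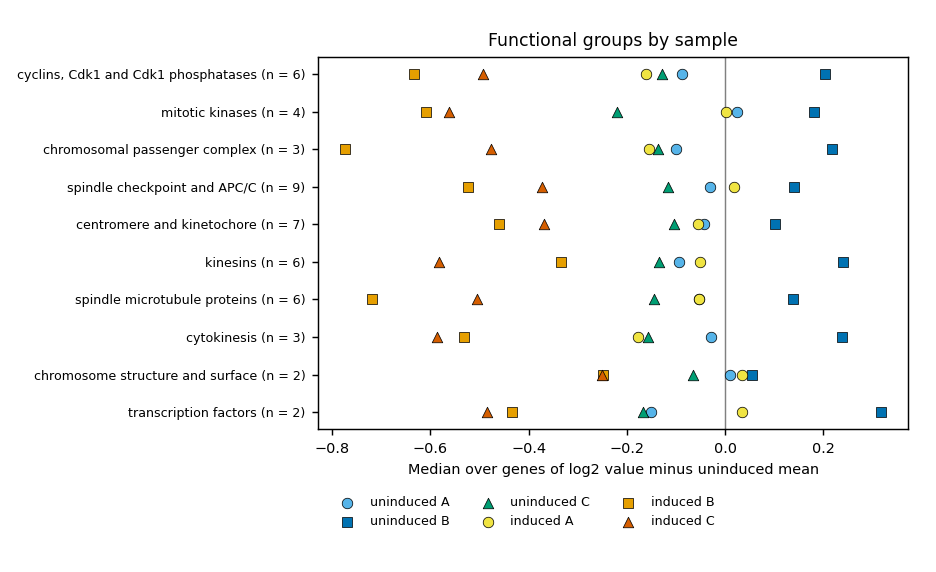
Median over the genes of each functional group of the log2 value minus the uninduced mean, 1 point per sample. In all 10 groups induced B and induced C are the 2 lowest samples; induced A lies within the uninduced range in 7 of them.

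Other genes of the pathway, not among the 50, were also mostly below 0. Of 69 listed, 63 were measured, and 62 had a difference below 0 (51 after cyclic loess), beside 44% of all genes as deposited and 51.6% after cyclic loess. Among genes in the members' level range, 86.8% were below 0 as deposited. Their median difference was -0.40. By limma 0 passed the test, beside 1.05% of all genes called lower and 0.374% higher. At an unadjusted p under 0.05, 30 (47.6%) were lower and 0 higher, beside 16.9% of all genes lower and 41.2% of genes in the members' level range. Set against the uninduced mean, they stood at a median of -0.62 for induced B, -0.47 for induced C and -0.14 for induced A. When induced A was left out, 35 fell at an adjusted p under 0.05 by limma, beside 15.9% of all genes lower and 9.01% higher. The share among genes of like level was not computed for that setting. The lowest differences were those of the spindle and kinetochore complex subunit Ska3 (-0.84, SE 0.30), the chromokinesin Kif22 (-0.66, SE 0.21) and Depdc1a (-0.65, SE 0.19). The highest were those of Sgo2a, which encodes the cohesin protector shugoshin 2 (0.04, SE 0.13), the centriolar kinesin Kif24 (-0.03, SE 0.13) and the minus-end motor Kifc1 (-0.09, SE 0.14). Kifc1 did not exceed the background range on any of the 6 arrays, so its difference is not that of a measured level, and Ska3 and Depdc1a exceeded that range in 1 of 3 induced samples each. All 7 measured condensin subunits and all 5 genes of the MuvB core lay below 0, with medians of -0.36 and -0.41, and 5 and 4 of them did so after cyclic loess.

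**Figure D5:**
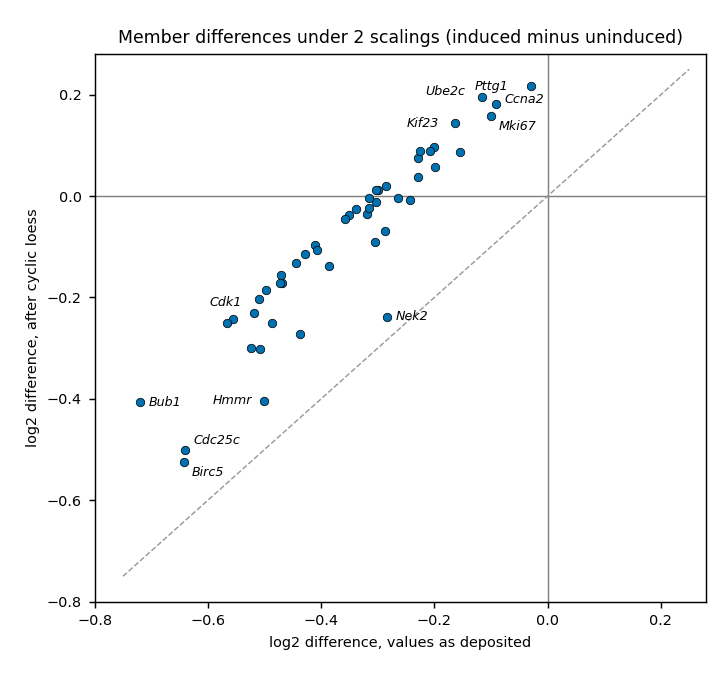
Log2 difference of each member, induced minus uninduced, from the values as deposited (horizontal) and after cyclic loess (vertical); the dashed line marks equal values. All 48 points lie above the dashed line, and 15 of 48 lie above 0 on the vertical axis, among them Ccna2, Ube2c, Pttg1, Kif23 and Mki67.

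The cells carried myeloid transcripts, and most markers of other lineages lay in the range of background. Of 10 myeloid genes 8 exceeded it on all 6 arrays, among them the granule protease genes Elane and Ctsg at 13.11 to 13.50, while Ptprc, which encodes CD45, lay in it on all 6. Their summed level, as log2, was 14.64 to 14.66 in uninduced and 14.88 to 14.96 in induced samples, and Ptprc, Cd68, Lyz2 and Mpo rose at an adjusted p under 0.05 by limma, beside 0.374% of all genes. The call for Ptprc was lost after cyclic loess (limma adjusted p = 0.0557) and median centring (0.0668). As Ptprc lay in the range of background throughout, its rise is not that of a measured level. Mpo exceeded that range on the induced arrays only, in induced B by little (7.996 against 7.987). No measured marker of erythroid cells (4), megakaryocytes (5) or T and NK cells (5) exceeded the range on any array, and of the other markers 4 of 5 for B cells, 5 of 6 for hepatocytes, 6 of 8 for mast cells and basophils and 4 of 6 for stroma and endothelium were in it on all 6. The summed level of the stromal and endothelial list, which Pecam1 dominates, was 11.06 to 11.14 in uninduced and 10.90 to 10.97 in induced samples, and that of the mast cell and basophil list 10.26 to 10.59 and 9.98 to 10.40; their part in the members' differences was not tested.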

How the data were processed

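Values are the log2 expression values the authors deposited, 1 per transcript cluster and array, with 41345 transcript clusters on each of 6 arrays. Per the submitters' processing notes, Partek and mouse build mm10 were used; not given in the sources used here are the background correction, normalization and summary method. The log2 scale was read from the values (2.86 to 14.03). The platform annotation (possibly outdated) gave 23521 transcript clusters 1 symbol, 1814 several and 16010 none. For 1082 genes with several, the one with the highest mean was used. Groups follow the titles. The test was limma's (version 3.58.1, R 4.3.3, lmFit and eBayes, two-sided, without covariate or filter), adjusted by Benjamini-Hochberg over 22180 genes at 0.05. It was tried on simulated data with 200 changed genes and noise independent between genes. It recovered 25.4% of log2 changes of 0.5, 97% of those of 1 and 100% of those of 2, with 12 false calls. Most changes as small as 0.5 were thus missed. The number of arrays limits the precision. Deviations of same-lettered samples from their group means correlated at -0.31, -0.28 and 0.42 for A, B and C, so letters were not treated as pairs. Members, lists, functional groups and alternatives were chosen with earlier results of these data known. All 48 measured members are named; of other pathway genes, the 3 lowest and 3 highest differences, together with any past the threshold (there were 0). Gene coordinates and promoters are RefSeq's, on GRCm38.p6. Alternatives were a replicate block, quantile normalization, median centring, cyclic loess, testing only genes above the 25th percentile of level, robust moderation with a variance trend, array weights, averaging the transcript clusters of a gene, a threshold of 0.10 and leaving out each array.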

Additional observations from a re-analysis of the deposited data

How the results depend on the processing

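Which array is left out and how the arrays are scaled decided the results most. Members past the threshold numbered 0 as deposited, 1 with the replicate block, 1 with the filter at the 25th percentile, 1 at a threshold of 0.10 (Bub1 each time), 32 with array weights, 2 with cyclic loess and induced A left out together, and 0 to 26 when 1 array was left out; the other alternatives gave 0. With array weights (66.7% of members, beside 25.6% of all genes called lower), uninduced C and induced C weighed 4.60 and 3.46 and the other arrays 0.31 to 0.93. The replicate block changed no other member's call. The median member difference was -0.056 after cyclic loess, which moved it by more than the spread between samples, and from -0.49 to -0.13 under the other alternatives; that of the other pathway genes was -0.16 after cyclic loess. The scaling alone moved the median of all genes from 0.06 to -0.08 (median centring) and to -0.01 (cyclic loess and quantile normalization). For these moves and the reversals that follow, the cause was not tested.

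Differences above 0 arose for 15 members after cyclic loess: Ccna2 0.18, Ccnb2 0.038, Cdca8 0.058, Mad2l1 0.074, Cdc20 0.012, Ube2c 0.20, Pttg1 0.22, Nuf2 0.090, Spc25 0.087, Knstrn 0.021, Kif11 0.096, Kif23 0.14, Top2a 0.089, Mki67 0.16 and Mybl2 0.012. Quantile normalization gave 7: Ccna2 0.057, Ube2c 0.11, Pttg1 0.16, Nuf2 0.0083, Spc25 0.036, Kif23 0.058 and Mki67 0.0082. Cyclic loess with induced A left out, chosen after seeing the data, gave 11: Ccna2 0.21, Ccnb2 0.13, Cdca8 0.010, Ube2c 0.22, Pttg1 0.22, Nuf2 0.031, Spc25 0.082, Kif11 0.11, Kif23 0.13, Top2a 0.049 and Mki67 0.22. Leaving out 1 array put Nek2 between -0.48 and 0.057 and Pttg1 between -0.094 and 0.024; the other members stayed below 0 there. Nek2, Birc5, Cdc25c, Hmmr, Cdc25b, Ttk, Kif4 and Ckap2 lay in the range of background on at least 1 array, which limits their fold differences.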

Other observations

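Related genes, such as partners in a complex, can be set against each other within an array. For 10 pairs, chosen after their values were seen and given with no test, the log2 value of one gene minus that of the other was taken in each sample. Ndc80 minus Nuf2 was, in the order A, B, C, -0.05, 0.08 and -0.16 for uninduced and -0.41, -0.38 and -0.33 for induced samples, a mean difference of -0.33 as deposited and after cyclic loess. Bub1 minus Bub1b was -0.10, -0.06 and -0.05 and then -0.56, -0.29 and -0.28, a mean difference of -0.31 under both scalings. In both pairs induced A lay with the other induced samples, and the groups did not overlap.

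The groups did not overlap for 7 of the 10 pairs. As the pairs were chosen after their values were seen, this count does not show how often pairs of members, or of other genes, separate. Besides the pairs above these were Ndc80 minus Spc25 (mean difference -0.40), Birc5 minus Cdca8 (-0.44), Aurkb minus Cdca8 (-0.27), Cdk1 minus Ccna2 (-0.43) and, with the higher value in induced samples, Kif23 minus Racgap1 (0.28). They overlapped for Cdk1 minus Ccnb2 (-0.29), Espl1 minus Pttg1 (-0.36) and Cdc25b minus Cdc25c (0.13). For Cdk1 minus Ccna2 the separation was narrow, with uninduced A at -0.393 and induced A at -0.394.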
